A study of Drosophila melanogaster with 8 samples.

Results

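Protein synthesis uses a dedicated set of factors, and 55 of the 14161 genes in the count tables carry a symbol of that set: every name that begins with eIF, Eif, eRF, Ef1, Ef2 or Aats-. By symbol they were 28 initiation factors, 5 elongation factors, 1 release factor and 21 aminoacyl-tRNA synthetases, which the tables name Aats- followed by the amino acid. The rule reads names and no measured value, but it was set with earlier results of these data known. Gene names below are those of the deposited tables, and current names are given where they differ in meaning. In the current annotation eIF-5A is eEF5, an elongation factor, and it was kept with the initiation factors by its symbol.

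The genes were followed in 8 mRNA sequencing libraries of S2R+ cells, an embryonic Drosophila line that resembles blood cells. All cells were transfected with Actin:dCas9-VPR, a Cas9 that binds but does not cut DNA, fused to a transcriptional activator and named by its labels for the Actin promoter. The control group received control guides, called Quas in the sample titles and described once as aimed at a luciferase reporter promoter and once as non-targeting. The other groups received 5 guides upstream of twi (Twist guides), 5 upstream of sna (Snail guides) or the combined pools (both pools), with 2 libraries in each of the 4 groups, called control, Twist-guide, Snail-guide and both-pool cells where values are listed. The sources used here do not give the time after transfection or the share of cells transfected.

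Initiation factors load the initiator tRNA and the small ribosomal subunit onto an mRNA and find its start codon. Elongation factors then bring each aminoacyl-tRNA to the ribosome and move the ribosome along, a release factor ends the chain at a stop codon, and the synthetases join each amino acid to its tRNA. Most of these genes are expressed in all growing cells, and the pathway is known to be regulated largely at the protein level, by phosphorylation of eIF2 alpha and by proteins that bind the cap-binding factor eIF4E.

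Total counts per library ranged from 10752993 to 13351166, and 8029 genes had enough counts to be tested. The targeted genes followed the labels: twi had 0 counts in all control and Snail-guide libraries and stood at 26.3 and 28.2 CPM (counts scaled to a common library size) with Twist guides and at 13.7 and 12.7 CPM with both pools. sna was at 97.2 and 102 CPM with Snail guides, at 124 and 122 CPM with both pools and at most at 0.186 CPM elsewhere. Of 12 blood-cell markers 11 were found, and the blood-cell regulators srp and ush, the scavenger receptor crq and the peroxidasin Pxn were all expressed, whereas Hml, He, eater and Nplp2 stayed below 2 CPM in every library. The summed level of the 11 markers was 555 and 650 CPM in control cells, 550 and 545 in Twist-guide cells, 503 and 499 in Snail-guide cells and 537 and 510 in both-pool cells, and its part in the results below was not tested. The 2 control libraries stood further apart than other replicate pairs: the mean squared difference between replicates, relative to that of counting noise, was 25.1 in the control pair, 6.52 in the Twist-guide pair, 3.63 in the Snail-guide pair and 3.49 in the both-pool pair. Taken by the median over genes, the ratio was lower, at 6.29, 3.27, 2.13 and 2.04 in the same order. This distance enters the shared estimate of spread. Results are therefore also given without a control library for counts of calls and for some, not all, of the genes whose call changed.

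The summed share of the library taken by the translation genes varied little between guide groups, and most of it came from the 5 elongation factors. The 55 genes together took 3.75% and 4% of all counts in control cells, 3.77% and 3.75% in Twist-guide cells, 3.69% and 3.71% in Snail-guide cells and 3.95% and 3.77% in both-pool cells. The ranges of the 4 groups overlapped or lay inside the range of the control pair, except that both Snail-guide values were below the control pair. Initiation factors took between 1.05% and 1.08% of counts in every library. Elongation factors took 2.19% and 2.4% in control cells, 2.21% and 2.16% in Twist-guide cells, 2.1% and 2.14% in Snail-guide cells and 2.4% and 2.21% in both-pool cells. Synthetases took between 0.459% and 0.488%.

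Levels per length, in CPM per kilobase of the longest annotated transcript, differed widely among members, and the ranges of the classes overlapped. Ef1alpha48D, the factor that delivers aminoacyl-tRNA to the ribosome, had the highest level at 3460 ± 341 CPM per kb (mean ± SD over the 8 libraries). Ef2b, now eEF2, the translocation factor, stood at 2960 ± 197 CPM per kb, eIF-5A at 2700 ± 146 and Ef1gamma, part of the exchange complex of Ef1alpha, at 2420 ± 125. The library ranges of neighbours in this order overlapped, so these ranges do not resolve the order of neighbours. Ef1beta, the exchange factor, followed at 1440 ± 84.2 CPM per kb, apart from its neighbours on both sides, and the cap-complex helicase eIF-4a at 1050 ± 44.9 CPM per kb.

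Among the other initiation factors, the subunits of eIF2, which carries the initiator tRNA, led with 548 ± 20.9 CPM per kb for eIF-2beta and 415 ± 21.5 for eIF-2alpha. The 5 subunits of eIF3 under these symbols, the scaffold on the small ribosomal subunit, ranged from 157 CPM per kb for eIF-3p66 to 262 for eIF3-S9. The subunits of eIF2B, the exchange factor that recharges eIF2, were lower: eIF2B-delta at 86.3 CPM per kb, eIF2B-epsilon and eIF2B-gamma at 33.7 each, eIF2B-alpha at 27 and eIF2B-beta at 22.4. The lowest tested initiation factors were eIF4G2 at 11.3 ± 2.62 CPM per kb and eIF-4B at 1.59 ± 0.387 CPM per kb, the latter from 245 counts over all 8 libraries. Which gene models were counted is not stated, so it is not known whether the counts of eIF-4B cover the whole gene.

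The eIF4E family was represented mainly by one member. eIF-4E, now eIF4E1, the cap-binding protein, was at 165 ± 10.7 CPM per kb, and eIF4E-6 at 41.9 ± 3.42. eIF4E-4 had 0 counts in all 8 libraries, eIF4E-3 had 1 count, eIF4E-7 had 12 and eIF4E-5 had 13 over the 8 libraries together. These 4 genes were the only members too low to be tested, which left 51. A paralog pair also divided the elongation factors: Ef1alpha100E stood at 2.11 ± 0.659 CPM per kb beside Ef1alpha48D at 3460. The coding sequences of these 2 genes are closely alike, so the counting of shared reads makes the low value of Ef1alpha100E uncertain.

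Synthetases covered a narrower range. The highest were Aats-asp at 195 ± 6.3 CPM per kb, Aats-thr at 172 ± 8.87 and Aats-ala at 170 ± 4.49, and their library ranges overlapped. The lowest of the 15 synthetases whose current symbol does not end in -m was Aats-gln at 61.2 ± 3.62 CPM per kb. Of the 6 whose current symbol marks the mitochondrial enzyme, Aats-phe was the highest at 78.4 ± 2.4 CPM per kb and lay inside the range of the 15 others. The other mitochondrial enzymes all lay below it, with Aats-leu at 29.1 CPM per kb, Aats-ala-m at 23.1, Aats-pro at 18.9, Aats-ser at 13.8 and Aats-met at 5.48. Aats-asp overlaps 1575 bp of exons on the other strand, which includes antisense RNA, and the sources used here do not give the strand setting of the counting.

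**Figure D1:**
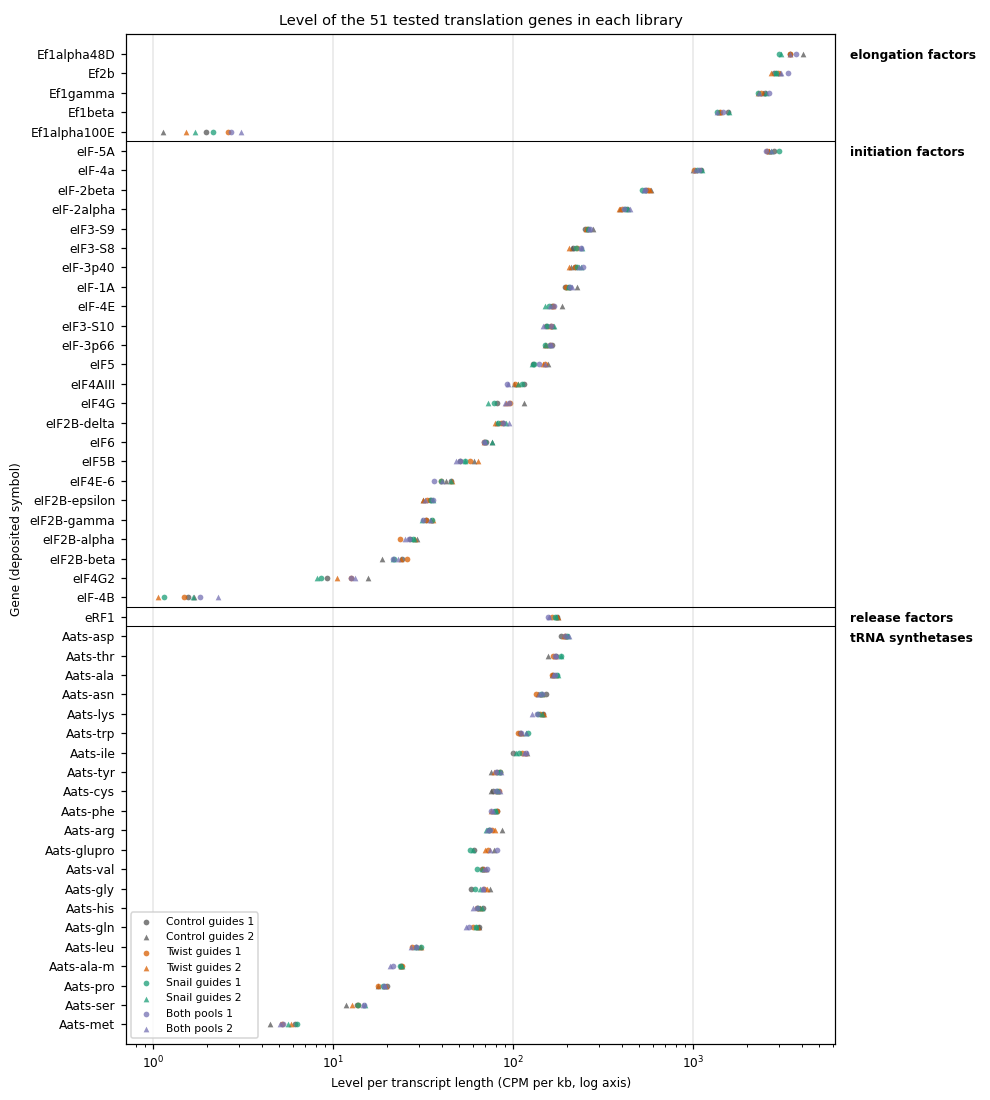
Level per transcript length (CPM per kb, log axis) of the 51 tested genes in each of the 8 libraries, ordered by mean level within each class; colours mark guide groups and symbols the replicate. Ef1alpha48D leads at 3460 CPM per kb and Ef1alpha100E and eIF-4B lie near 2, and for most genes the 8 libraries fall close together.

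No translation factor or synthetase passed the test in any of the 6 comparisons between guide groups. With edgeR's quasi-likelihood test and Benjamini-Hochberg adjustment over all 8029 genes, 0 of the 51 members were called with Twist guides against control, where 0.934% of all genes were called. The count was also 0 of 51 with Snail guides against control (0.324% of all genes) and with both pools against control (1.57%). The 3 comparisons with control share the same control libraries, and in bulk RNA a change in part of the cells cannot be told apart from a smaller change in all of them, nor fewer cells of a type from less RNA per cell. Between guide groups the count was again 0 of 51 for both pools against Twist guides (1.05% of all genes), both pools against Snail guides (0.909%) and Twist guides against Snail guides (1.08%). At an unadjusted p under 0.05 the members numbered 0, 4 and 5 in the comparisons of Twist guides, Snail guides and both pools with control, where the shares over all genes were 8.28%, 14% and 16.5%. DESeq2 called 0 members in those comparisons, where it called 0.897%, 0.971% and 2.04% of all genes. It called 2 members in the comparison of both pools with Snail guides, beside 2.28% of all genes.

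The interval of each gene, taken alone, bounds what could have been missed for that gene. With Twist guides against control, 48 of 51 members had a 95% interval of the log2 fold change that lay wholly within 0.5 of 0 in either direction, compared with 70.4% of all tested genes. For Snail guides 46 of 51 did, compared with 66.2%, and for both pools 48 of 51, compared with 66.3%. Interval width depends on the count level of a gene, and these shares were not matched for it. Groups that did not overlap were counted as well: 1 member was above and 6 were below control with Twist guides (15.2% and 16.2% of all genes), 10 and 9 in the Snail-guide comparison (21.5% and 21.7%) and 10 and 12 in the both-pool comparison (22% and 22.2%). The class medians of the log2 fold change lay near 0: for initiation factors -0.04 in the Twist-guide comparison, -0.01 in the Snail-guide and -0.01 in the both-pool comparison. Those of elongation factors were -0.07, -0.02 and -0.00 and those of synthetases -0.00, 0.01 and 0.03 in the same order, while the medians over all genes were -0.01, 0.00 and -0.01. The members with intervals that reached beyond the band were few and mostly low or long: Ef1alpha100E, eIF-4B and eIF4G2 did so in all 3 comparisons with control.

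**Figure D2:**
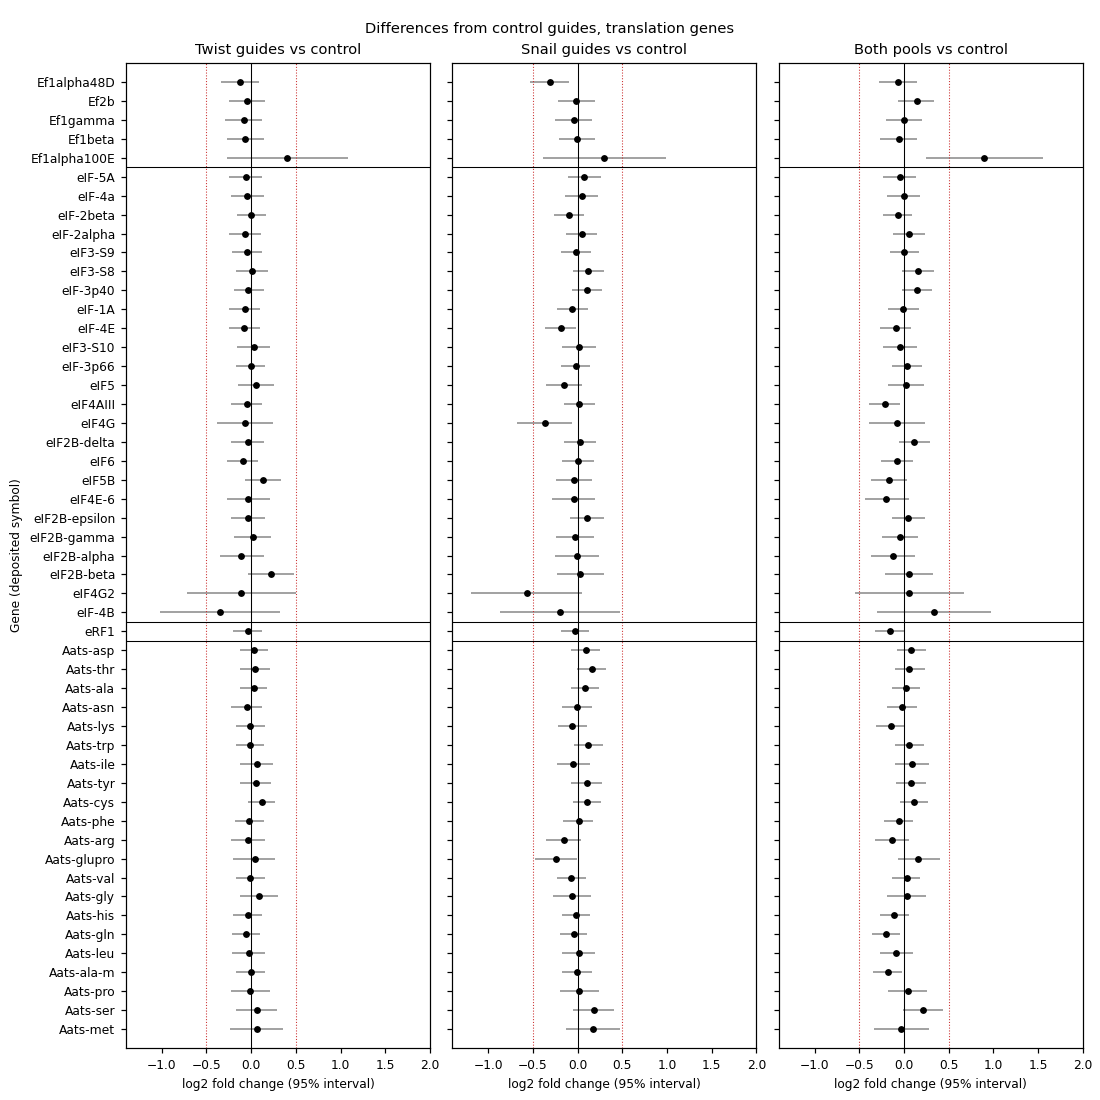
log2 fold change against control guides with its 95% interval (edgeR quasi-likelihood fit) for the 51 tested genes in 3 panels, 1 per guide pool; dotted lines mark 0.5 in either direction. Twist guides have 48, Snail guides 46 and both pools 48 of the 51 intervals wholly between the dotted lines, and the widest belong to Ef1alpha100E, eIF-4B and eIF4G2.

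Among elongation factors, Ef1alpha48D had the smallest p in the Snail comparison. Its 743663 counts gave 7900 and 9290 CPM in control cells, 7890 and 7830 in Twist-guide cells, 6830 and 7030 in Snail-guide cells and 8520 and 7850 in both-pool cells. The 2 Snail-guide libraries were lower than all 6 others, and the difference from control was -0.31 ± 0.10 (log2, SE), with an adjusted p of 0.21 by edgeR. Without control replicate 1 this difference was -0.42 with an adjusted p of 0.000683 by edgeR, in a setting that called 17.9% of all genes, and without control replicate 2 it was -0.19 and not called (adjusted p = 0.364 by edgeR). Ef2b was at 8430 and 9160 CPM in control cells, 8900 and 8130 in Twist-guide cells, 8690 and 8670 in Snail-guide cells and 10100 and 9280 in both-pool cells. Its both-pools values were the highest in the series and differed from control by 0.14 ± 0.09 (log2, adjusted p = 0.5 by edgeR).

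The exchange factors Ef1beta and Ef1gamma had narrow intervals. Ef1beta ranged from 1300 to 1510 CPM over the 8 libraries and Ef1gamma from 3850 to 4440 CPM, and the interval of each of their differences from control lay within 0.3 of 0 on the log2 scale. Ef1alpha100E, the low paralog, was at 5.13 and 2.97 CPM in control cells, 6.78 and 3.97 in Twist-guide cells, 5.58 and 4.42 in Snail-guide cells and 7.08 and 8.04 in both-pool cells. Both values with both pools exceeded all 6 others, and the difference from control was 0.89 ± 0.30 (log2, adjusted p = 0.176 by edgeR) with a 95% interval from 0.24 to 1.55. Between 32 and 89 counts per library stood behind these values. It was called without the filter on low counts (adjusted p = 0.043 by edgeR, beside 2.95% of all genes) and without control replicate 1 (log2 difference 1.34, adjusted p = 0.0124 by edgeR, beside 14.3% of all genes). Without control replicate 2 the log2 difference of Ef1alpha100E was 0.56 and was not called (adjusted p = 0.279 by edgeR).

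eRF1, which recognises stop codons, was at 407 and 409 CPM in control cells, 383 and 410 in Twist-guide cells, 397 and 403 in Snail-guide cells and 361 and 369 in both-pool cells. The both-pools values were the lowest in the series. The difference from control was -0.16 ± 0.07 on the log2 scale, with an adjusted p of 0.294 by edgeR. Its exons share 189 bp with those of CG5618 on the same strand.

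The initiation factors with the widest spread were the eIF4G scaffolds, which join the cap-binding protein to the helicase and to eIF3. eIF4G, now eIF4G1 (chromosome 4, 915297 to 930715, minus strand, BDGP6.54), has a longest transcript of 6335 bp. It was at 513 and 724 CPM in control cells, 606 and 574 in Twist-guide cells, 495 and 460 in Snail-guide cells and 600 and 572 in both-pool cells. The Snail-guide libraries were the lowest, control replicate 1 stood next to them and control replicate 2 was the highest of all. The difference of Snail guides from control was -0.37 ± 0.14 (log2, adjusted p = 0.282 by edgeR).

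eIF4G2 (chromosome 3R, 23808285 to 23819237, minus strand), a paralog known in Drosophila for its role in the male germ line, has a longest transcript of 8889 bp, the longest of all members. It was at 81.8 and 138 CPM in control cells, 111 and 93.1 in Twist-guide cells, 75.8 and 72.4 in Snail-guide cells and 112 and 118 in both-pool cells. The order of the libraries was like that of eIF4G: Snail guides lowest, control replicate 1 next, control replicate 2 highest. The log2 difference from control was -0.57 ± 0.25 with Snail guides (adjusted p = 0.383 by edgeR) and 0.06 ± 0.24 with both pools (adjusted p = 0.942 by edgeR). Its exons share 779 bp with those of CG33111 on the same strand, so its counts are uncertain to that extent.

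eIF-4E, the cap-binding partner of eIF4G, was at 294 and 336 CPM in control cells, 298 and 297 in Twist-guide cells, 283 and 269 in Snail-guide cells and 302 and 288 in both-pool cells. The Snail-guide values were the lowest, with a log2 difference from control of -0.19 ± 0.08 (adjusted p = 0.323 by edgeR). eIF-4a, the helicase of the same complex, ranged from 2010 to 2260 CPM over the 8 libraries, with differences from control of -0.05 to 0.05 on the log2 scale. Without control replicate 1, eIF-4E differed by -0.28 with Snail guides and was called (adjusted p = 0.011 by edgeR, beside 17.9% of all genes), and without control replicate 2 it differed by -0.09 (adjusted p = 0.717 by edgeR).

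eIF5 and eIF5B, factors of start-codon recognition and subunit joining, did not pass the test in any comparison. eIF5 (chromosome X, 15987008 to 15991974, minus strand), which triggers GTP hydrolysis by eIF2, was at 343 and 416 CPM in control cells, 398 and 387 in Twist-guide cells, 347 and 336 in Snail-guide cells and 372 and 397 in both-pool cells. Its Twist-guide values were above both Snail-guide values, by 0.20 ± 0.09 (log2, adjusted p = 0.418 by edgeR). Nearly the whole of its transcript, 2588 of 2659 bp, lies in exons shared with CG46312 on the same strand. eIF5B (chromosome 3L, 3428658 to 3460977, minus strand), the GTPase that joins the ribosomal subunits, was at 223 and 265 CPM in control cells, 253 and 282 in Twist-guide cells, 238 and 237 in Snail-guide cells and 224 and 211 in both-pool cells. With both pools it was 0.30 ± 0.09 below Twist guides on the log2 scale (log2 difference -0.30, adjusted p = 0.119 by edgeR), and the 2 groups did not overlap.

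eIF4AIII (chromosome 3R, 8313208 to 8314864), a helicase of the exon junction complex and not of initiation, was at 169 and 149 CPM in control cells, 152 and 157 in Twist-guide cells, 165 and 158 in Snail-guide cells and 136 and 138 in both-pool cells. Both values with both pools lay below the 6 others. The log2 difference was -0.21 ± 0.08 from control (adjusted p = 0.212 by edgeR) and -0.23 ± 0.08 from Snail guides (adjusted p = 0.152 by edgeR). eIF-4B, whose protein assists the helicase, was between 1.76 and 3.79 CPM in all libraries, from 21 to 41 counts each.

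None of the eIF2, eIF2B and eIF3 subunits passed the test. eIF-2alpha, the target of the stress kinases Gcn2 and PEK, was at 655 and 599 CPM in control cells, 607 and 587 in Twist-guide cells, 632 and 663 in Snail-guide cells and 625 and 678 in both-pool cells. Of eIF2B, eIF2B-beta had the smallest p with Twist guides, at 32.5 and 25.2 CPM with control guides against 35 and 32.1, a log2 difference of 0.22 ± 0.12 (adjusted p = 0.696 by edgeR). Of eIF3, eIF3-S8 was at 707 and 692 CPM with control guides against 782 and 779 with both pools, and eIF-3p40 at 329 and 315 CPM against 364 and 349. In both genes the 2 groups did not overlap, with log2 differences of 0.16 and 0.15 and adjusted p-values of 0.349 and 0.36 by edgeR. eIF6, which keeps free large ribosomal subunits apart from small ones, ranged from 72.3 to 80.8 CPM.

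**Figure D3:**
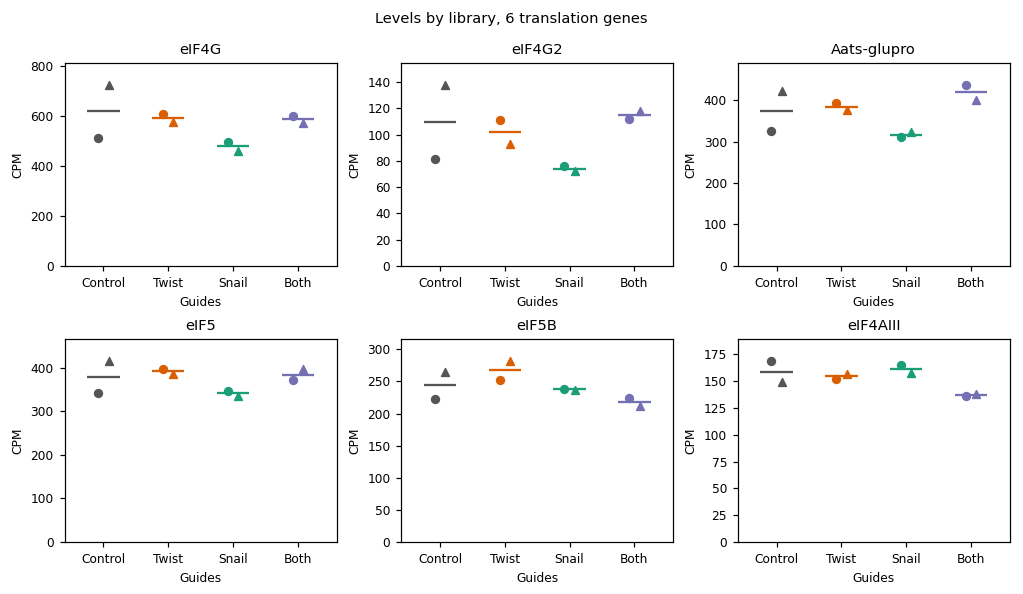
CPM in each library (circle replicate 1, triangle replicate 2) with the group mean as a bar, from a zero baseline, for eIF4G, eIF4G2, Aats-glupro, eIF5, eIF5B and eIF4AIII. In the first 4 panels the Snail-guide pair and control replicate 1 lie low and control replicate 2 lies high, as in eIF4G with 513 and 724 CPM in the control pair against 495 and 460 with Snail guides.

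Of the synthetases, the bifunctional Aats-glupro, which charges tRNAs for both glutamate and proline, had the smallest adjusted p of any member in any comparison. It lies on chromosome 3R, 23952136 to 23958391 on the minus strand, and its longest transcript has 5405 bp. It was at 326 and 422 CPM in control cells, 392 and 375 in Twist-guide cells, 310 and 322 in Snail-guide cells and 437 and 401 in both-pool cells. The Snail-guide pair lay below all other libraries, with control replicate 1 just above it. The difference of both pools from Snail guides was 0.41 ± 0.11 (log2, adjusted p = 0.0916 by edgeR) with a 95% interval from 0.17 to 0.64. Exons on the other strand, of an antisense RNA, cover 905 bp of it.

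The remaining synthetases differed by less. Aats-gln was at 158 and 158 CPM in control cells, 146 and 157 in Twist-guide cells, 153 and 153 in Snail-guide cells and 139 and 135 in both-pool cells. The mitochondrial Aats-ala-m was at 77 and 77.4 CPM in control cells, 77.6 and 76.6 in Twist-guide cells, 76.1 and 77.7 in Snail-guide cells and 69.1 and 66.8 in both-pool cells. In both genes the both-pools pair lay below the 6 other libraries, with log2 differences from control of -0.20 ± 0.07 and -0.18 ± 0.08 and adjusted p-values of 0.198 and 0.264 by edgeR. Aats-lys showed the same placing, at 302 and 284 CPM with both pools against 326 and 325 with control guides (log2 difference -0.15, adjusted p = 0.331 by edgeR).

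In the Snail comparison Aats-thr was at 516 and 512 CPM against 483 and 437 with control guides, a log2 difference of 0.16 ± 0.08 (adjusted p = 0.376 by edgeR). Aats-arg was at 157 and 150 CPM against 156 and 186 (log2 difference -0.15, adjusted p = 0.441 by edgeR), and here the groups overlapped. With Twist guides the smallest p was that of Aats-cys, at 205 and 200 CPM against 190 and 184 (log2 difference 0.12, adjusted p = 0.77 by edgeR). Aats-gly was at 149 and 189 CPM with control guides against 176 and 182 with Twist guides. Aats-trp was at 204 and 197 CPM with Snail guides and 178 and 187 CPM with Twist guides (log2 difference between them -0.14, adjusted p = 0.46 by edgeR). All 21 synthetases had intervals within 0.5 of 0 in each of the 3 comparisons with control.

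The mitochondrial synthetases as a group took 0.0377% and 0.0364% of counts in control cells, 0.0368% and 0.0379% in Twist-guide cells, 0.0386% and 0.0378% in Snail-guide cells and 0.0354% and 0.0351% in both-pool cells. The both-pools pair was the lowest. The median log2 fold change of the 6 with both pools against control was -0.05, with 2 members above 0 and 4 below, beside a median of 0.03 for the 15 others and -0.01 over all genes. Of the 6, Aats-ser went the other way, at 34.8 and 30 CPM with control guides against 37.7 and 37.4 (log2 difference 0.21, adjusted p = 0.331 by edgeR).

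Values of the members went with transcript length in some of the libraries. The 51 members had longest transcripts of 686 to 8889 bp, with a median of 2278 bp. Across them Spearman's correlation between length and the deviation of a gene from its mean over the 8 libraries was -0.51 and 0.17 in the control libraries, 0.42 and 0.07 in Twist-guide cells, -0.13 and -0.32 in Snail-guide cells and 0.33 and 0.04 in both-pool cells. Over the 7950 tested genes with a length the values were -0.29 and 0.27, 0.29 and -0.01, -0.34 and -0.25, and 0.27 and 0.06. These are descriptions across genes, which share the libraries and are not independent replicates. The correlation was negative in control replicate 1 and the Snail-guide libraries, over members and over all genes, and positive in control replicate 2, Twist replicate 1 and replicate 1 of both pools. Whether RNA quality or library preparation had a part was not tested.

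The 5 members over 4000 bp were eIF4G2, eIF4G, Aats-glupro, eIF5B and Aats-met. Their median log2 difference was 0.29 for both pools against Snail guides and 0.28 for Twist guides against Snail guides, beside -0.00 and -0.03 for the 46 shorter members. For both pools against Snail guides 2 of the 5 went the other way, eIF5B at -0.13 and Aats-met at -0.20, and for Twist guides against Snail guides Aats-met did, at -0.11. Aats-met was at 27.1 and 24.3 CPM in Snail-guide cells, 26.3 and 19.3 in control cells, 22.5 and 25.1 in Twist-guide cells and 22.8 and 21.8 in both-pool cells. NAT1, a relative of eIF4G outside the symbol rule with a longest transcript of 5618 bp, was at 678 and 921 CPM in control cells, 852 and 795 in Twist-guide cells, 646 and 664 in Snail-guide cells and 843 and 788 in both-pool cells. Its libraries stood in nearly the same order as those of eIF4G.

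**Figure D4:**
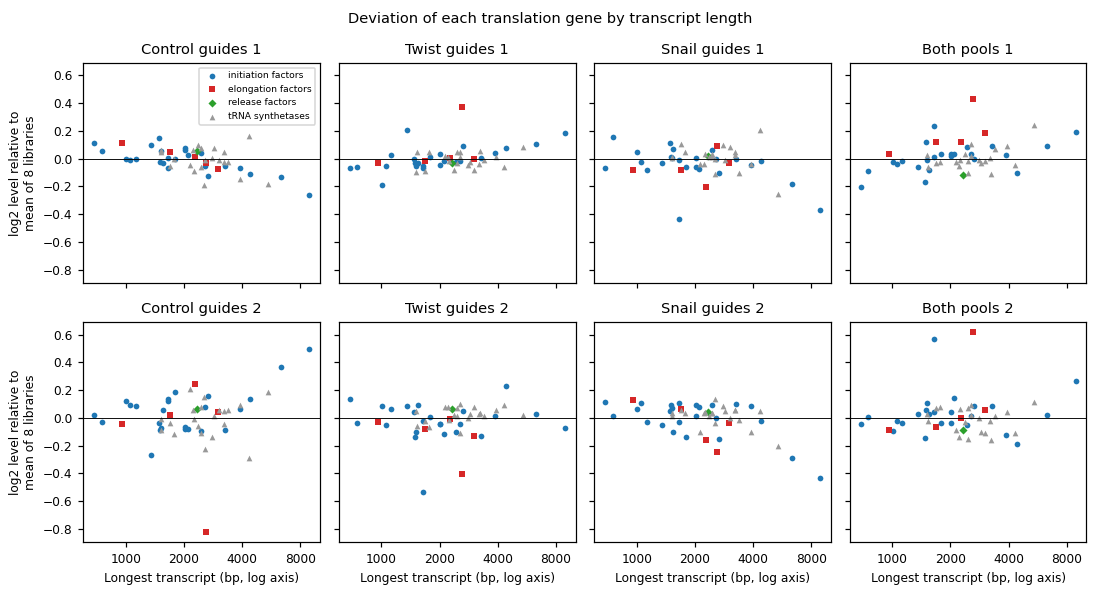
log2 level of each of the 51 tested genes relative to its mean over the 8 libraries, against the length of its longest transcript (bp, log axis), in 1 panel per library; symbols mark the class. eIF4G, eIF4G2 and Aats-glupro lie low in control replicate 1 and in the Snail-guide libraries and high in control replicate 2, whereas Aats-met, also over 4000 bp, lies the opposite way in these 4 libraries and eIF5B is near its mean with Snail guides.

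Calls among members appeared in some other settings, among them fits with only the 4 libraries of the 2 groups compared. With only the 4 libraries of both pools and Snail guides, 7 of 51 members were called, beside 19.3% of all genes, so the share of members was not above that of the tested genes. Aats-glupro was higher with both pools by 0.41 ± 0.06 (log2, adjusted p = 3.64e-05 by edgeR) and eIF4G2 by 0.64 ± 0.07 (adjusted p = 6.92e-07 by edgeR). After an added correction of each library for transcript length, chosen after seeing the data, 8 of 51 were called beside 15.9% of all genes. Aats-glupro then differed by 0.27 ± 0.05 (adjusted p = 0.00232 by edgeR) and eIF4G2 by 0.35 ± 0.07 (adjusted p = 0.00176 by edgeR), whereas eIF4G, at 0.30 ± 0.06 without the correction (adjusted p = 0.00107 by edgeR), was at 0.11 ± 0.06 with it (adjusted p = 0.203 by edgeR). DESeq2 on all 8 libraries called eIF4G2 (log2 difference 0.63, adjusted p = 0.0201) and Aats-glupro (0.41, adjusted p = 0.0221) in the same comparison, beside 2.28% of all genes.

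The other 6 members called after both changes differed by smaller amounts on the log2 scale, apart from Ef1alpha100E. Ef1alpha48D was higher in both-pool than in Snail-guide cells by 0.26 (adjusted p = 0.0117 by edgeR), eIF5 by 0.18 (0.0384) and Ef1alpha100E by 0.60 (0.0353). eIF5B differed by -0.21 (adjusted p = 0.0117 by edgeR), Aats-ala-m by -0.20 (0.0461) and eIF4AIII by -0.18 (0.0313). For both pools against Twist guides eIF5B was the only member called, at -0.30 with only the 4 libraries compared (adjusted p = 0.0213 by edgeR, beside 8.87% of all genes) and at -0.31 with the length correction as well (adjusted p = 0.0129 by edgeR, beside 10.8%). For Twist guides against Snail guides 4 members were called with only the 4 libraries compared, beside 8.89% of all genes: eIF4G2 (0.47), eIF4G (0.31), Aats-glupro (0.29) and eIF5 (0.21). With the length correction the count was 0 of 51, beside 6.43% of all genes. Without either control library the counts between guide groups were 1 of 51 for both pools against Twist guides (beside 12% and 12.1% of all genes without replicate 1 and 2), 5 for both pools against Snail guides (beside 13.9% and 14%) and 4 for Twist guides against Snail guides (beside 10.4% and 10.5%). Without the filter on low counts eIF5B was called for both pools against Twist guides (adjusted p = 0.0221 by edgeR, beside 3.51% of all genes) and Aats-glupro for both pools against Snail guides (adjusted p = 0.00305 by edgeR, beside 3.65%). With only the 4 libraries compared, 0 members were called in any comparison with control, where 0.486%, 0.0747% and 0.697% of all genes were in the Twist-guide, Snail-guide and both-pool comparisons.

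The comparisons with control depended on which control library was used. Without control replicate 1, 10 of 51 members were called with Snail guides, beside 17.9% of all genes: 8 were lower, among them eIF4G2 (log2 difference -0.90), eIF4G (-0.60) and Aats-glupro (-0.42), and Aats-met (0.41) and Aats-thr (0.23) were higher. Without control replicate 2 none of the 51 were, beside 0.81% of all genes, and the differences were -0.14 for eIF4G2, -0.10 for eIF4G, -0.05 for Aats-glupro, -0.03 for Aats-met and 0.09 for Aats-thr. For both pools the counts were 4 without control replicate 1 (beside 14.3% of all genes) and 3 without control replicate 2 (beside 6.65%), and no gene was in both. eIF4G was called lower with both pools in the first case (-0.31) and was at 0.19 in the second, and eIF4G2 was called higher in the second (0.49) and was at -0.27 in the first, so both changed sign with the control library used. For Twist guides the counts were 2 (beside 4.1% of all genes), eIF4G (-0.30) and eIF4G2 (-0.44), and 1 (beside 6.35%), Aats-gly (0.27). These 3 genes also changed sign under the other omission, to 0.20, 0.32 and -0.08.

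Another pair of lists covered the rest of the pathway. Of 22 symbols of other translation machinery 11 were found in the tables, among them the poly(A)-binding protein pAbp, the eIF3 subunits Int6 and Trip1, the recycling factor pix, the mitochondrial elongation factor EfTuM and the rescue factors pelo and HBS1. None of the 11 was called in any comparison, and at an unadjusted p under 0.05 they numbered 0, 3 and 2 with Twist guides, Snail guides and both pools against control, where 8.28%, 14% and 16.5% of all genes did. Int6 was at 645 and 632 CPM with Snail guides against 589 and 515 with control guides (log2 difference 0.21, adjusted p = 0.286 by edgeR). With both pools eEF1delta was at 319 and 325 CPM against 347 and 397 (-0.21, adjusted p = 0.259 by edgeR) and pix at 202 and 192 CPM against 159 and 183 (0.21, adjusted p = 0.272 by edgeR).

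Of 20 symbols of regulators of translation 19 were found, and 1 was called in any comparison: Thor rose with both pools, beside 1.57% of all genes called in that comparison. Thor encodes 4E-BP, which binds eIF4E and keeps eIF4G away from it. It was at 51.2 and 52.1 CPM in control cells, 61.4 and 51.7 in Twist-guide cells, 59.7 and 60.2 in Snail-guide cells and 68.8 and 78.6 in both-pool cells. Thor with both pools was 0.38 above Twist guides and 0.30 above Snail guides on the log2 scale. Neither was called with all 8 libraries in the fit (adjusted p = 0.0854 and 0.15 by edgeR, 0.113 and 0.243 by DESeq2). With only the 4 libraries compared both were called (0.029 and 0.00728 by edgeR), beside 8.87% and 19.3% of all genes. The both-pools pair was above all 6 other libraries, and the log2 difference from control was 0.51 ± 0.10 (adjusted p = 0.0262 by edgeR). The call did not hold with only the 4 libraries compared (adjusted p = 0.0881 by edgeR), nor without either Snail-guide library (0.0603 and 0.0606), nor without replicate 1 (0.0936) or replicate 2 (0.378) of both pools. It did hold without either control library (0.00679 and 0.00812) and with DESeq2 (0.0117).

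The other regulators with small p-values did not pass in the reported edgeR fit of all 8 libraries, and some were called in other settings. crc, the Drosophila ATF4 that is translated when eIF2 alpha is phosphorylated, was at 1610 and 1490 CPM in control cells, 1790 and 1580 in Twist-guide cells, 2070 and 1980 in Snail-guide cells and 1980 and 2040 in both-pool cells. Its log2 differences from control were 0.39 ± 0.09 with Snail guides (adjusted p = 0.108 by edgeR) and 0.38 ± 0.09 with both pools (adjusted p = 0.0577 by edgeR), and DESeq2 called both (adjusted p = 0.00543 and 0.00436). Without control replicate 1 or 2 the log2 difference of crc was 0.45 or 0.33 with Snail guides and 0.43 or 0.32 with both pools. Lk6, the kinase that phosphorylates eIF4E, was at 1070 and 1130 CPM in control cells, 1390 and 1070 in Twist-guide cells, 1050 and 1140 in Snail-guide cells and 1510 and 1510 in both-pool cells. Its difference with both pools was 0.46 ± 0.11 (log2, adjusted p = 0.064 by edgeR, 0.00427 by DESeq2). Without control replicate 1 or 2 this difference was 0.42 or 0.49. Without the filter on low counts crc was called with Snail guides and with both pools (adjusted p = 0.0125 and 0.0103 by edgeR). Lk6 was called there with both pools (0.0011 by edgeR), beside 1.82% of all genes with Snail guides and 2.95% with both pools. With only the 4 libraries compared, crc was not called against control with Snail guides or both pools (adjusted p = 0.486 and 0.212 by edgeR). Nor was Lk6 with both pools (0.116 by edgeR). Lk6 with both pools was 0.46 above Snail guides on the log2 scale (adjusted p = 0.0686 by edgeR, 0.00411 by DESeq2). With only those 4 libraries it was called (1.42e-05 by edgeR, beside 19.3% of all genes). Against Twist guides it was not (0.11 by edgeR). In such fits crc was called for both pools against Twist guides (0.25, adjusted p = 0.0355 by edgeR) and Twist against Snail guides (-0.26, 0.0311). These calls stood beside 8.87% and 8.89% of all genes. Paip2, which binds the poly(A)-binding protein and represses translation, was at 80.9 and 114 CPM in control cells, 91.3 and 87.4 in Twist-guide cells, 56.5 and 62 in Snail-guide cells and 91.6 and 93.9 in both-pool cells. The Snail-guide pair was below all other libraries, by -0.72 ± 0.14 from control on the log2 scale (adjusted p = 0.0789 by edgeR, 0.000397 by DESeq2). Without control replicate 1 or 2 the log2 difference of Paip2 with Snail guides was -0.95 or -0.45. Paip2 was called with Snail guides without the filter on low counts (adjusted p = 0.000189 by edgeR) and with the replicate number as a block (0.0315). Against control it was not called with only the 4 libraries compared (adjusted p = 0.456 by edgeR). Paip2 with both pools was 0.65 above Snail guides on the log2 scale (adjusted p = 0.0633 by edgeR, 0.00187 by DESeq2). With Twist guides it was 0.59 above Snail guides (0.116 by edgeR, 0.00522 by DESeq2). With only the 4 libraries compared both differences were called (1.29e-06 and 7.46e-05 by edgeR), beside 19.3% and 8.89% of all genes. Gcn2, PEK, Tor and S6k, the kinases that act on eIF2 alpha or on growth signalling, did not pass in any comparison with all 8 libraries in the fit.

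**Figure D5:**
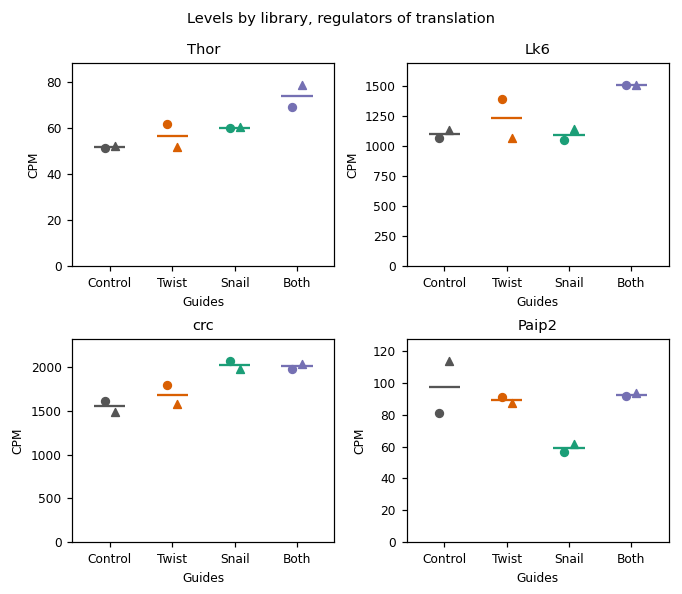
CPM in each library (circle replicate 1, triangle replicate 2) with the group mean as a bar, from a zero baseline, for the regulators Thor, Lk6, crc and Paip2. Thor and Lk6 are highest with both pools (68.8 and 78.6 CPM for Thor), crc is high with Snail guides and both pools, and Paip2 is lowest with Snail guides (56.5 and 62 CPM).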

How the data were processed

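Raw counts per gene symbol were deposited by the authors, 1 table per library, from mRNA libraries of total RNA. Per the submitters' processing notes TopHat2 (version 2), Bowtie2, HTSeq and DESeq were used; the sources used here do not give the build, annotation or strand setting. Members and lists were chosen with earlier results of these data known. Symbols were matched to Ensembl release 115 (BDGP 6.54): for members 5 were current and 50 older. All 8 libraries entered 1 edgeR 4.0.16 quasi-likelihood fit (limma 3.58.1, R 4.3.3; robust, TMM, filterByExpr minimum count 10, 4 groups, 4 residual degrees of freedom), with Benjamini-Hochberg adjustment at 0.05 over 8029 genes in each of 6 contrasts. DESeq2 1.42.0 was an alternative. CPM are TMM-normalised, SE and 95% intervals come from the fit, and p-values measure only the spread between these libraries, which may be technical. Members named were those with the smallest p or the extreme levels in each class, the paralog families and all elongation and release factors. The procedure was run on simulated counts with the same spread in every group, which does not cover the wider distance within the control pair. The replicate numbers are not stated to pair libraries.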

Additional observations from a re-analysis of the deposited data

How the results depend on the processing

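Of 5202 member values recomputed under 17 settings, 66 passed the test with the sign they had in the reported fit, 0 passed with the opposite sign, and 305 changed sign with no call in either. The count of members called stayed 0 in all 6 comparisons with DESeq2 size factors, library size alone, a filter of 1 CPM in 2 libraries and the transcript length correction. Without a filter it was 1 for both pools against control, 1 against Twist guides and 1 against Snail guides, beside 2.95%, 3.51% and 3.65% of all genes. With only the groups compared it was 1 for both pools against Twist guides, 7 for both pools against Snail guides and 4 for Twist guides against Snail guides, and with the length correction as well, added after seeing the data, 1, 8 and 0. DESeq2 called 2 for both pools against Snail guides, beside 2.28% of all genes. In that comparison the regulators brat and pum, at log2 differences of 0.09 and 0.15 with no call, were called at -0.275 and -0.172 with only the groups compared and the length correction. Leaving out each library in turn gave 0 to 2 calls for Twist guides against control, 0 to 10 for Snail guides, 0 to 4 for both pools, 0 to 1 for both pools against Twist guides, 0 to 5 against Snail guides and 0 to 4 for Twist guides against Snail guides, the highest counts standing beside 4.1%, 17.9%, 14.3%, 12%, 13.9% and 10.4% of all genes in the same order; control replicate 1 or 2 was the library left out wherever the count was above 0, and fewer libraries then set the spread. The lone control library was assumed to vary like the other groups. Class medians of the log2 fold change against control ranged, over the same libraries left out, from -0.053 to -0.023 (initiation, Twist guides), -0.047 to 0.006 (initiation, Snail guides), -0.098 to -0.003 (initiation, both pools), -0.114 to -0.007, -0.115 to 0.024 and -0.096 to 0.089 (elongation, same order), and -0.007 to 0.022, -0.004 to 0.038 and -0.012 to 0.029 (synthetases, same order). With library size alone the synthetase median for both pools was 0.007. Why these values moved was not tested. With the replicate number as a block 0 members were called in any comparison; the correlations of replicate differences between groups ran from -0.148 to 0.142, so the numbers were not treated as pairs. Lengths by union of exons instead of the longest transcript moved 7 of 51 levels per kb by more than 1 SD and changed the rank of 5 members in their class. eIF-4B had 21 to 41 counts per library, and 4 members were too low to be tested.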
